A study of Mus musculus with 12 samples.

Results

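The genes described here were the chemokine ligands and chemokine receptors of the mouse, taken by name from the GENCODE annotation: protein-coding genes named Ccl, Cxcl, Cx3cl1 or Xcl1 (ligands) and Ccr, Ccrl2, Cxcr, Cx3cr1, Xcr1 or Ackr (receptors). Those described numbered 55 of the 54446 genes in the count data, with 33 ligands and 22 receptors. The rule used names alone and no measured value. Chemokines with other names (Pf4, Ppbp) or a letter behind the number (Ccl21a, Ccl27a) were not members. The RNA came from CD11b+ myeloid cells sorted from MC38 tumors, which grow from a mouse colon carcinoma line, in WT mice. In this study WT means Ythdf2 fl/fl without Cre, and the methods give young adult mice of both sexes without saying which sex went into which pool. Tumors were irradiated locally with 20 Gy in a single dose (IR) or left unirradiated (Ctrl), and cells were collected 3 days after IR. Each condition had 3 pools of mice, and each pool gave an Input library from a part of the lysate and a library of the RNA that came down with an antibody to YTHDF2 (IP), so there were 12 libraries in 4 groups of 3. The methods call the pools technical replicates, so the p-values measure the spread between pools, which may be technical.

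Chemokines are small secreted proteins, a few of them held on the membrane, that guide leukocytes along a gradient. They bind G protein-coupled receptors on the migrating cell, which signal through inhibitory G proteins, while atypical receptors take ligand up without that signal. In tumors, ligands of CCR2 and CXCR2 draw in monocytes and neutrophils, ligands of CCR4 draw in regulatory T cells, and CCR7 carries dendritic cells to lymph nodes. YTHDF2 is a cytoplasmic reader of N6-methyladenosine (m6A) that speeds the decay of mRNAs it binds. Many chemokine mRNAs are short-lived through AU-rich elements, which other proteins read.

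The libraries held 27852948 to 42382532 counts on genes, so that 3 counts, the lowest level taken as detectable, corresponded to 0.0708 to 0.108 CPM, the count scaled to a common library total. Levels are CPM scaled by TMM over the 12 libraries, and fold changes are log2 values scaled over the libraries of the comparison alone. The scaling over 12 libraries puts the change in Input 0.09 higher for the median gene, so ratios of the printed levels exceed the fitted changes by about that much. Reads on no gene made up 24.65% to 26.98% of the Input libraries, 41.77% to 42.69% of Ctrl IP and 49.41% to 54.09% of IR IP. The mRNA of the antibody's own target, Ythdf2, was higher in the IP than in the Input of both conditions, by 0.74 ± 0.0548 (SE) in Ctrl and 0.50 ± 0.122 in IR, and its Input level fell by 0.25 ± 0.0524 after IR (adjusted p = 2.97e-04, edgeR). Itgam, which encodes the CD11b used for the sort, stood at 943 ± 1.39 CPM in Ctrl Input and 1717 ± 23.4 CPM in IR Input (SD, n = 3). Lyz2 and Ptprc were also high, at 2466 and 340.5 CPM in Ctrl Input.

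Most chemokine counts in these cells came from a few genes. The shares given here are of CPM without division by length. Of the 55 members, 22 averaged 100 counts or more over the libraries (13 ligands and 9 receptors), 36 reached the count minimum of a test in at least 1 comparison (20 ligands and 16 receptors), and 19 did not. In Ctrl Input the summed ligand level was 3482 ± 31.0 CPM (SD, n = 3), and Ccl6, Ccl22 and Ccl17 supplied 74.9% of it. With Ccl9 and Ccl5 the share was 91.6%. The summed receptor level was 602.5 ± 14.8 CPM, and Ccr2, Ccr7 and Ccr1 supplied 79.1%. With Cxcr2 and Cxcr4 it was 96.8%.

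Genes can be compared with each other only per length. Per kilobase of exons, the highest ligand in Ctrl Input was Ccl17, a CCR4 ligand, at 834 ± 30.01 CPM per kb, followed by Ccl6, a CCR1 ligand, at 730 ± 6.74, Ccl22, also a CCR4 ligand, at 373 ± 5.92, Ccl5 at 204 ± 5.14 and Ccl9 at 127 (SD over 3 pools). None of these neighbours overlapped within its SD. The order of the leading pair rested on the length used: per kilobase of the main transcript, Ccl6 stood at 910 and Ccl17 at 834. Among receptors Ccr7 was highest at 85.4 ± 1.23 CPM per kb, above Ccr1 at 37.6 ± 1.23, Ccr2 at 29.8 and Cxcr4 at 28.3. The SD of Cxcr4 spanned the gap to Ccr2, so these last neighbours did not differ beyond their spread.

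**Figure D1:**
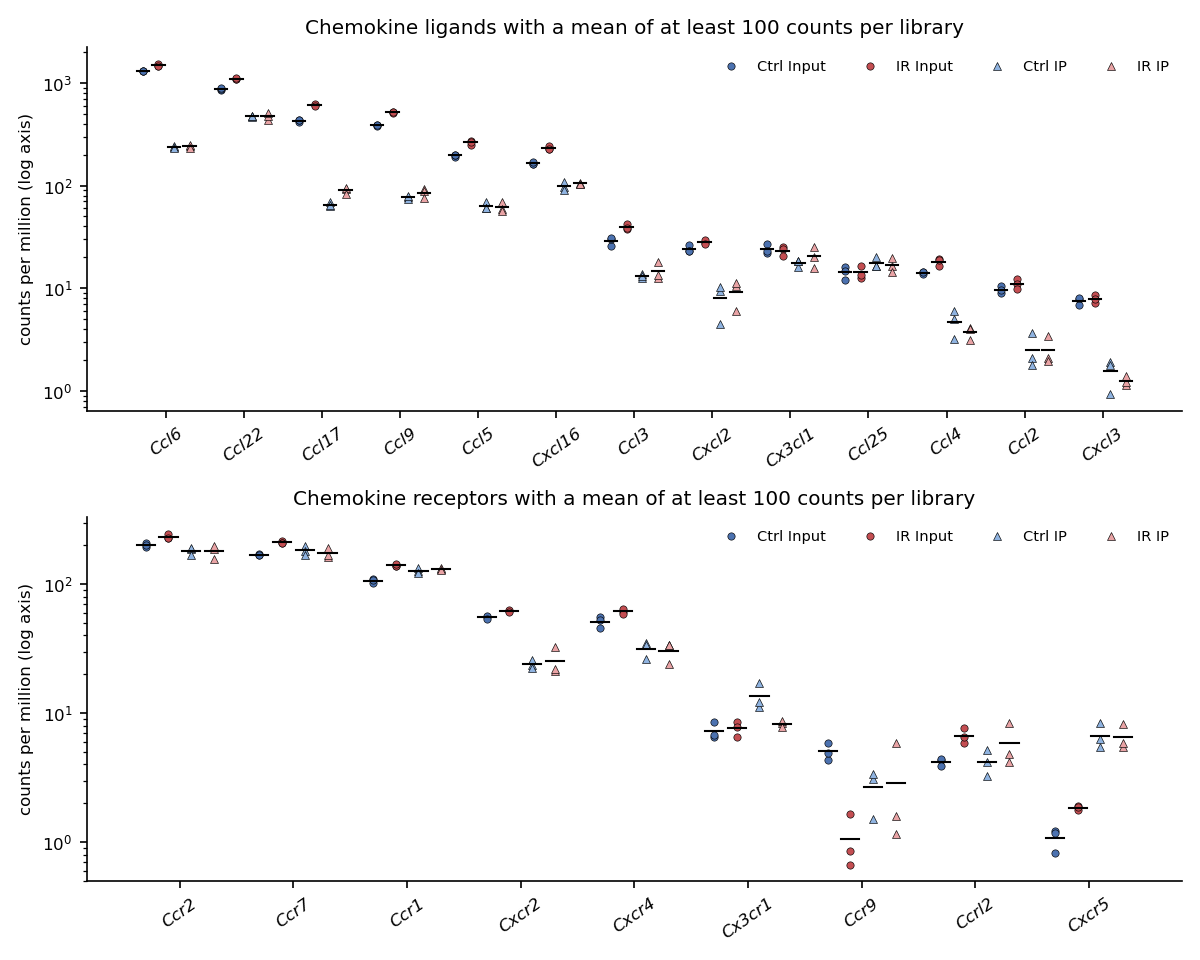
Level of each chemokine ligand (top) and receptor (bottom) that averaged 100 counts or more, in CPM on a log axis, with genes ordered by their Ctrl Input mean. Circles are Input pools, triangles are IP pools, blue is Ctrl, red is IR, and the black bar is the mean of 3 pools. For Ccl6 the Input pools sit near 1311 to 1494 CPM on average and the IP pools near 237 to 242, while for Ccr1 and Ccr7 Input and IP lie at similar heights.

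After irradiation, ligand RNA rose in the Input for part of the family, and no ligand was called lower. Of 19 ligands tested, 9 were higher in IR Input than in Ctrl Input and 0 were lower, beside 21% of all genes called higher and 23.9% called lower. The median ligand change was 0.26, against 0.01 over all genes tested. The changes were small, and none of these 9 reached 2-fold. In bulk RNA a change in the share of a cell type and a change in RNA per cell cannot be told apart.

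Both CCR4 ligands rose. Ccl17 stood at 411, 439 and 436 CPM in the 3 Ctrl Input pools and at 609, 618 and 593 CPM in IR Input. Every IR pool lay above every Ctrl pool, and the fitted change was 0.42 ± 0.0308 (1.34-fold, adjusted p = 1.20e-11). Ccl22 went from 856, 865 and 883 CPM to 1084, 1094 and 1116 CPM, a change of 0.26 ± 0.0265 (adjusted p = 6.03e-09), also without overlap. The genes flank Cx3cl1 on chromosome 8 (mm10): Ccl22 lies at chr8:94745590-94751699, Cx3cl1 at chr8:94772009-94782427 and Ccl17 at chr8:94810453-94812036, all on the + strand. Cx3cl1, which encodes the membrane-bound ligand of CX3CR1, was at 26.8, 22.1 and 23.1 CPM in Ctrl and 25.0, 23.9 and 20.8 CPM in IR. Its pools overlapped and its change of -0.12 ± 0.0836 did not pass the test (adjusted p = 0.241).

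The ligands of CCR1, and Ccl4 with them, rose. Ccl9, which signals through CCR1, went from 392, 384 and 386 CPM to 521, 505 and 526 CPM (0.34 ± 0.0301, adjusted p = 4.89e-10). Ccl5, which attracts T cells and monocytes, went from 191, 198 and 200 CPM to 250, 273 and 265 CPM (0.34 ± 0.0356, adjusted p = 9.54e-09). Ccl3 rose by 0.38 ± 0.0675 from a mean of 28.9 to 39.7 CPM. For Ccl4, which attracts monocytes and T cells, the mean was 14.2 CPM in Ctrl and 18.2 CPM in IR, and its change of 0.28 ± 0.0876 (adjusted p = 0.0111) no longer passed without replicate 2 (adjusted p = 0.123), without replicate 3 (0.0895) or with the 12 libraries in one fit (0.212). Ccl6, the most abundant ligand by count, was at 1318, 1297 and 1318 CPM in Ctrl and 1469, 1541 and 1470 CPM in IR. Its fitted rise was only 0.11 ± 0.0265 (adjusted p = 0.00126) and was lost without replicate 2 (0.076, adjusted p = 0.106).

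Cxcl16, the transmembrane ligand of CXCR6 that also acts as a scavenger receptor, rose as much as Ccl17. Its Ctrl Input pools were at 163, 161 and 171 CPM and its IR pools at 226, 244 and 228 CPM, which do not overlap (0.41 ± 0.0366, 1.33-fold, adjusted p = 4.50e-10). Exons of Cxcl16 are overlapped on the opposite strand by Zmynd15, which stood at 9.18 CPM in Ctrl and 12.02 CPM in IR. The option for strand in the counting is not given in the sources used here, so reads of overlapping genes on opposite strands may not be told apart.

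The ligands that bring in monocytes and neutrophils gave a weaker picture. Among CCR2 ligands, Ccl7 went from 27 to 44 counts per pool in Ctrl Input to 51 to 117 counts in IR Input, a rise of 0.93 ± 0.313 (adjusted p = 0.0173) that rested on few counts and was lost without replicate 3 (0.62, adjusted p = 0.26) and with the 12 libraries in one fit (adjusted p = 0.215). Ccl2, which is the main attractant of inflammatory monocytes, was at 8.91, 10.6 and 9.68 CPM in Ctrl and at 12.3, 11.1 and 9.90 CPM in IR, with overlapping pools and a change of 0.11 ± 0.11 (adjusted p = 0.428). Among CXCR2 ligands, Cxcl2 was at 26.1, 23.2 and 22.9 CPM in Ctrl and 27.4, 29.4 and 27.0 CPM in IR. These pools did not overlap, but the change of 0.14 ± 0.0723 missed the threshold (adjusted p = 0.131) and passed it without replicate 1 (0.21, adjusted p = 0.0412). Cxcl3 had means of 7.57 and 7.87 CPM and did not pass.

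**Figure D2:**
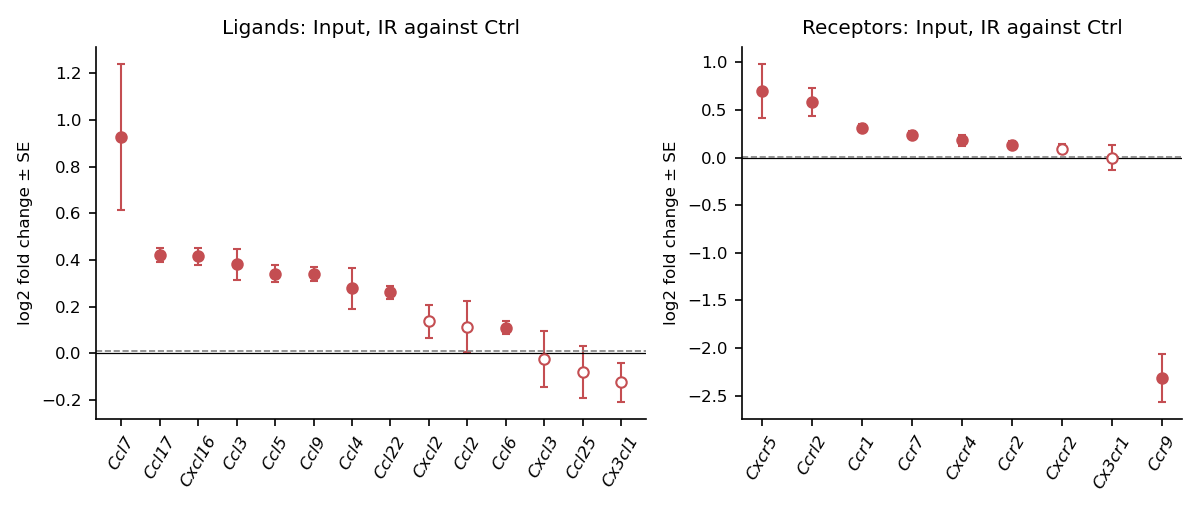
Change in the Input after irradiation (IR against Ctrl, log2 fold change with its SE, 3 pools per group) for ligands (left) and receptors (right) that had a mean of at least 100 counts or passed the test. Filled points passed an adjusted p of 0.05, open points did not, and the dashed line is the median of all genes tested (0.01). The panels have different vertical scales. Ccl7 is highest among ligands at 0.93, the other ligands that passed lie from 0.11 to 0.42, and Ccr9 stands alone among receptors at -2.32.

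Most receptors that passed in the Input also rose, with Ccr9 as the exception. Of 12 receptors tested, 6 were higher in IR Input and 1 was lower, beside the same 21% and 23.9% of all genes, and the median change was 0.21. Ccr1, a receptor for Ccl3, Ccl5, Ccl6 and Ccl9 on monocytes and neutrophils, went from 103, 110 and 107 CPM to 138.5, 138 and 143 CPM without overlap (0.31 ± 0.0377, adjusted p = 1.06e-07). Ccr7 went from 168, 172 and 167 CPM to 215, 209 and 209 CPM (0.24 ± 0.0338, adjusted p = 1.36e-06). For Ccr2, which lets monocytes leave the bone marrow, the pools were at 194, 207 and 203 CPM in Ctrl and 227, 245 and 228 CPM in IR (0.14 ± 0.0364, adjusted p = 0.00332). These 3 receptors and Ccr9 passed under each alternative run other than a 2-fold minimum.

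Cxcr4, Ccrl2 and Cxcr5 also passed, less firmly. Cxcr4, which holds leukocytes in the bone marrow, changed by 0.18 ± 0.0577 (adjusted p = 0.012, and 0.105 without replicate 1). Ccrl2, an atypical receptor that presents chemerin, went from 4.31, 4.41 and 3.88 CPM to 5.83, 6.49 and 7.62 CPM (0.58 ± 0.146, adjusted p = 0.00174), and did not pass without replicate 3 (0.41, adjusted p = 0.087) or with the 12 libraries in one fit (adjusted p = 0.0886). Cxcr5, the receptor that leads B cells into follicles, was at 32 to 48 counts per pool in Ctrl and 69 to 75 in IR (0.70 ± 0.285, adjusted p = 0.048), a call that most alternatives lost (adjusted p = 0.0802 without a filter). Its exons are overlapped on the opposite strand by Bcl9l, which stood at 38.4 CPM in Ctrl Input and 52.3 CPM in IR Input. Cxcr2, the neutrophil receptor, had means of 55.2 and 62.2 CPM and missed the threshold (0.093 ± 0.0466, adjusted p = 0.11).

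Ccr9, the receptor of Ccl25 that marks gut-homing T cells and plasmacytoid dendritic cells, fell. Its Ctrl Input pools were at 5.86, 4.36 and 4.94 CPM (170 to 205 counts) and its IR pools at 0.668, 0.856 and 1.66 CPM (26 to 67 counts), with no overlap. The change was -2.32 ± 0.249 (4.98-fold lower, adjusted p = 1.63e-08). Genes overlapping its exons (Gm17200, AC165425.1 and Slc6a20a) had at most 17 counts in any Input library.

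Markers of cell types also changed in the Input, and several lists held genes called in both directions. The sums use the scaling over 12 libraries, which puts the Input change 0.09 higher for the median gene. The summed level of 8 neutrophil markers rose from 6058 to 6782 CPM across the Ctrl Input pools to 8521 to 9244 CPM in IR Input, with 5 of 8 passing upward and 0 downward. Conventional dendritic cell markers, leaving out Ccl22, went from 397 to 409 CPM in Ctrl to 454 to 465 CPM in IR (3 of 7 higher, 2 lower), monocyte markers from 1700 to 1768 CPM to 1872 to 1956 CPM (2 of 8 higher, 4 lower), and macrophage markers from 220 to 227 CPM to 196 to 206 CPM (4 of 8 higher, 3 lower). Itgam itself rose by 0.79 ± 0.0255. Epithelial markers, which would include the MC38 cells, summed to 119 to 127 CPM in Ctrl and 90.8 to 97.0 CPM in IR. Of the 8, Krt8, Krt19, Krt20, Cldn4 and Cldn7 were under 3 counts on average and only 2 were tested. Cdh1 fell (-0.51 ± 0.04), while Epcam leaned upward and did not pass (0.28 ± 0.154), so this sum does not show a fall in tumor cells. T cell markers summed to 4.26 to 5.57 CPM in Ctrl and 3.15 to 4.11 CPM in IR, with Cd3e and Cd8b1 under 3 counts. Of 4 T cell markers tested, 0 were higher and 1, Cd4, was lower. NK cell markers summed to 1.46 to 2.16 CPM in Ctrl and 2.03 to 2.46 CPM in IR, with Ncr1, Klra8, Eomes, Gzma and Prf1 under 3 counts. Of 2 NK cell markers tested, 1, Klrb1c, was higher and 0 were lower. B cell markers went from 24.5 to 25 CPM to 34.6 to 36.9 CPM (7 tested, 3 higher, 2 lower), and endothelial markers from 73.8 to 82.6 CPM to 97.0 to 101 CPM (5 tested, 2 higher, 1 lower). Fibroblast markers went from 55.4 to 59.6 CPM to 49.9 to 57.1 CPM (3 tested, 1 higher, 1 lower), and platelet markers from 119 to 124 CPM to 135 to 141 CPM (8 tested, 2 higher, 0 lower). The part of these shifts in the ligand and receptor changes was not tested.

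Transcript length moved with the Input change as well. Coding genes with a main transcript under 1000 nt had a median change of 0.21 (890 genes), and the 8 ligands among them had a median of 0.31. From 1000 to 1500 nt the medians were 0.10 for all coding genes and 0.14 for 5 ligands. From 2500 to 4000 nt they were -0.01 for coding genes, 0.34 for 3 ligands and 0.31 for 5 receptors. The part of length in the ligand changes was not tested.

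AU-rich elements in the 3′UTR and motifs in the promoter were looked up as features that the naming rule did not use. The nonamer TTATTTATT, a core AU-rich element, occurred in the 3′UTR of 4 of 32 ligands with an annotated 3′UTR (Cxcl1, Cxcl2, Cxcl3 and Cx3cl1) and 0 of 22 receptors, beside 6.91% of coding genes. Of these 4, Cxcl1 was not tested (9 counts at most), and Cxcl2, Cxcl3 and Cx3cl1 did not pass in the Input. The 884 coding genes tested that hold it had a median Input change of -0.08. The shorter pentamer ATTTA occurred at least 3 times in 13 of the 32 ligands and 4 of 22 receptors, beside 32.11% of coding genes. Of these 17 members, only Ccl3, Ccl6, Ccl9, Ccl12, Cxcl2, Cxcl3, Cxcl5, Ccr2 and Ccr9 were tested in the Input. Ccl3, Ccl6, Ccl9 and Ccr2 were called higher, with 5, 4, 5 and 8 copies, and Ccr9, with 5 copies, was called lower. Over all genes, 21% were called higher and 23.9% lower, and the call of Ccl6 was lost without replicate 2. The stretches shown are the nonamer in capitals with its flanks, read from the GENCODE transcript (mm10), all on the + strand: Cxcl2 at chr5:90905336-90905364, where nonamers overlap, Cxcl3 at chr5:90787867-90787895 and Cx3cl1 at chr8:94780850-94780878.
Cxcl2: atctatgtatTTATTTATTTATTaattcc
Cxcl3: ttatcagttgTTATTTATTgaaatggtct
Cx3cl1: cagtgaacaaTTATTTATTggattcccag

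Promoters of 23 ligands and 19 receptors were in the RefSeq table (GRCm38.p6). The window ran from 250 bases before to 50 after the start site, and both strands were searched. The NF-κB consensus, which is met by several degenerate letters, matched in 6 ligand promoters (Ccl9, Ccl20, Cxcl1, Cxcl2, Cxcl3 and Cxcl10) and 4 receptor promoters (Ackr2, Ccr3, Ccr6 and Ccrl2), beside 5.14% of all genes with a window. Of these 10 genes, 7 were tested in the Input, and Ccl9 and Ccrl2 were called higher, beside 21% of all genes. The pair TTC and GAA with 3 bases of any kind between, the core that STAT factors bind, occurred in Ccl17, Cxcl14 and Ccr6 (9.55% of all genes). A pair of GAAA repeats with 2 bases between, as in interferon-responsive elements, occurred in Ccl19, Cxcl10 and Cxcl14 (3.99% of all genes). For Ccl9, which rose, and for Cxcl2 and Cxcl3, which did not pass, the 60 bases around the NF-κB match are shown with the match in capitals, from chr11:83578637-83578696 on the - strand, chr5:90903777-90903836 on the + strand and chr5:90786003-90786062 on the + strand.
Ccl9: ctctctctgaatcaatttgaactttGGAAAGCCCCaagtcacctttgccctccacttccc
Cxcl2: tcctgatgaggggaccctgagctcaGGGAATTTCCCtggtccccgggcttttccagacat
Cxcl3: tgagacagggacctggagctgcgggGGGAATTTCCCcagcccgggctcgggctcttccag

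In the YTHDF2 IP, ligand mRNAs were recovered far less than their Input levels, and this held in both conditions. The libraries hold no IP with a control antibody or from cells without YTHDF2. The IP ratio is also relative to the other genes, so it does not measure binding by YTHDF2 alone. In Ctrl, 13 of 16 ligands tested were lower in the IP than in the Input and 1 was higher (Ccl25), beside 34.6% of all genes called lower and 34.1% called higher. Of these 13, Ccl7 reached the count minimum only through its Input pools. In IR, 12 of 18 were lower and 0 higher, beside 30.4% and 32.1%. The ligand median was -1.51 in Ctrl and -1.56 in IR, where the median coding gene stood at -0.10 and -0.09. The summed ligand level was 3482 ± 31.0 CPM in Ctrl Input and 1083 ± 11.6 CPM in Ctrl IP, and 4358 ± 59.3 CPM in IR Input and 1135 ± 12.7 CPM in IR IP (SD, n = 3).

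Among the most abundant ligands, Ccl17, Ccl6 and Ccl9 were far lower in the IP. Ccl17 stood at 63.0, 68.4 and 64.2 CPM in the Ctrl IP pools and 92.3, 94.98 and 83.1 CPM in the IR IP pools, against 411 CPM or more in each Input pool. Its IP against Input change was -2.64 ± 0.0484 in Ctrl (6.24-fold lower, adjusted p = 9.32e-18) and -2.70 ± 0.0569 in IR (adjusted p = 3.52e-11). Ccl6 was at 236, 243 and 233 CPM in Ctrl IP and 245, 247 and 234 CPM in IR IP, changes of -2.39 ± 0.0363 and -2.57 ± 0.0397. For Ccl9 the IP pools were at 77.9, 74.5 and 78.4 CPM in Ctrl and 91.8, 87.6 and 76.5 CPM in IR (-2.26 ± 0.0434 and -2.55 ± 0.0669). The IP and Input pools of these 3 genes lay far apart.

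Ccl5, Ccl4 and Ccl3 were lower in the IP too. Ccl5 changed by -1.55 ± 0.0571 in Ctrl and -2.04 ± 0.0783 in IR, Ccl4 by -1.52 ± 0.188 and -2.22 ± 0.183, and Ccl3 by -1.05 ± 0.106 and -1.38 ± 0.145. The CXCR2 ligands behaved alike, with Cxcl2 at -1.51 ± 0.204 and -1.54 ± 0.204 and Cxcl3 at -2.21 ± 0.259 and -2.59 ± 0.262. Ccl2 changed by -1.87 ± 0.236 in Ctrl and -2.11 ± 0.267 in IR. All of these had an adjusted p of 6.32e-05 or lower.

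Ccl22 and Cxcl16 were depleted least among the abundant ligands. Ccl22 was at 463, 478 and 480 CPM in Ctrl IP and 439, 479 and 511 CPM in IR IP (-0.80 ± 0.0347 and -1.15 ± 0.0517), and Cxcl16 at 95.8, 108 and 90.7 CPM and 104, 106.5 and 103.5 CPM (-0.67 ± 0.0603 and -1.10 ± 0.0528). Cx3cl1 was lower in Ctrl (-0.38 ± 0.109, adjusted p = 0.00544, and 0.137 without replicate 1), while in IR its change of -0.13 ± 0.169 did not pass. Ccl25, the CCR9 ligand, was higher in Ctrl by 0.39 ± 0.133 (adjusted p = 0.0153) and not called in IR (0.30 ± 0.167, adjusted p = 0.141), where library size as the only scaling gave 0.45 (adjusted p = 0.034). Its Ctrl call was lost without replicate 3 (0.20), without a filter (0.28) and with library size as the only scaling (0.21). Exons of Ccl25 are overlapped on the opposite strand by Elavl1, whose own level was 57.4 CPM in Ctrl Input and 18.2 CPM in Ctrl IP.

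Ccl7 was nearly absent from the Ctrl IP. Its 3 Ctrl IP pools held 1 to 2 counts each, at or below the detection floor, against 27 to 44 counts in Ctrl Input. It thus reached the count minimum only through the Input pools, so the direction of a call was largely set by the filter. The ratio of pooled Input to IP levels was 22.6 (95% exact counting interval 8.59 to 84.4). This interval covers counting error only and leaves out the spread between pools. In IR IP it held 12 to 28 counts, and its change from IR Input was -1.62 ± 0.549 (adjusted p = 0.0238, and 0.0526 with the replicate block). That call was also lost without replicate 2 or 3 (adjusted p = 0.112 and 0.258).

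**Figure D3:**
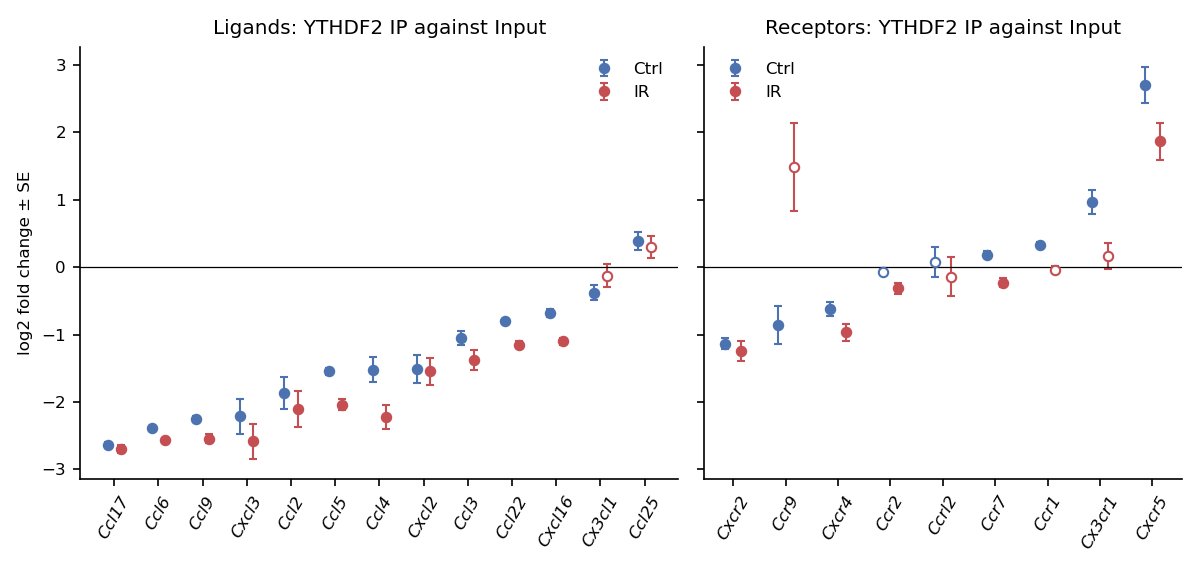
YTHDF2 IP against Input (log2 fold change with its SE, 3 pools per group) for ligands (left) and receptors (right) with a mean of at least 100 counts, ordered by the Ctrl value. Blue is Ctrl and red is IR, filled points passed an adjusted p of 0.05 and open points did not. Ligands run from -2.64 for Ccl17 to 0.39 for Ccl25 in Ctrl, while receptors spread to both sides of 0 and several sit lower in IR.

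Receptor mRNAs showed no such common shift. In Ctrl, 7 of 13 receptors tested were higher in the IP and 3 were lower, beside 34.1% and 34.6% of all genes, with a median of 0.19. Of these 7, Cxcr6 and Ccr6 reached the count minimum only through their IP pools. In IR, 3 were higher and 4 lower of 13, beside 32.1% and 30.4%, with a median of 0.16. The summed receptor level was 602.5 ± 14.8 CPM in Ctrl Input and 579 ± 36.8 CPM in Ctrl IP, and 728 ± 11.0 and 576 ± 6.71 CPM in IR.

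In Ctrl the receptors above the Input were Ccr1, Ccr4, Ccr6, Ccr7, Cx3cr1, Cxcr5 and Cxcr6. Cx3cr1, which marks patrolling monocytes and many macrophages, stood at 17.3, 11.1 and 12.2 CPM against 8.51, 6.52 and 6.75 CPM (0.97 ± 0.177, adjusted p = 1.02e-04). Ccr1 was higher by 0.33 ± 0.0516. Neither Cx3cr1 nor Ccr1 overlapped between IP and Input pools in Ctrl. Ccr7 was higher by 0.19 ± 0.0538 with overlapping pools, and with library size as the only scaling its change was 0.004 (adjusted p = 0.951).

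The largest IP ratios belonged to receptors of lymphocytes and dendritic cells with few counts. Genes with few counts leaned upward in general. Without a count filter the median of all genes in Ctrl was 0.49, against 0.02 with it. Summed B cell markers stood at 24.5 to 25 CPM in Ctrl Input and 62.3 to 63.5 CPM in Ctrl IP. T cell markers stood at 4.26 to 5.57 and 4.555 to 6.66 CPM, and dendritic cell markers without Ccl22 at 397 to 409 and 340 to 356 CPM. Cxcr5 held 32 to 48 counts in Ctrl Input and 168 to 261 in Ctrl IP (2.71 ± 0.269, adjusted p = 7.88e-08). Bcl9l, which overlaps it on the opposite strand, was at 38.4 CPM in Ctrl Input and 130 CPM in Ctrl IP. Ccr6, the receptor of Ccl20, held 5 to 20 counts in Ctrl Input and 21 to 75 in Ctrl IP (2.56 ± 0.661, adjusted p = 0.00239, and 0.0735 without replicate 2). Its Ctrl Input pools alone did not meet the count minimum, so the filter favoured a call in this direction. Ccr4, the receptor of Ccl17 and Ccl22, held 25 to 37 and 38 to 94 counts (1.58 ± 0.417, adjusted p = 0.0029, and 0.0621 without replicate 2). Cxcr6, the receptor of Cxcl16, held 0 to 4 counts in Ctrl Input and 12 to 18 in Ctrl IP. It reached the count minimum only through these IP pools, so the direction of a call was largely set by the filter. The ratio of its pooled levels was 11.95 (95% exact counting interval 4.78 to 38.5, which leaves out the spread between pools). With the 12 libraries in one fit its adjusted p was 0.0706. In IR, Ccr4 (2.06 ± 0.389), Ccr6 (2.88 ± 0.619) and Cxcr5 (1.87 ± 0.279) were again higher in the IP. Ccr4 and Cxcr5 passed under each alternative run, and Ccr6 under each run that tested it. Ccr6 reached 10 counts in only 9 of the 12 libraries, with a shortfall in IR too. The run with 10 counts in every library therefore left it out.

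Below the Input in both conditions were the neutrophil receptor Cxcr2 (-1.13 ± 0.0792 in Ctrl and -1.24 ± 0.145 in IR) and Cxcr4 (-0.62 ± 0.102 and -0.96 ± 0.127). Ccr9 was lower in Ctrl (-0.85 ± 0.281, adjusted p = 0.0126, and 0.112 with the 12 libraries in one fit). In IR, Ccr2 (-0.31 ± 0.0765) and Ccr7 (-0.23 ± 0.0661) were also called lower. With library size as the only scaling, Ccr2 and Ccr7 no longer passed in IR (adjusted p = 0.109 and 0.244). Without replicate 3 Ccr2 did not pass either (adjusted p = 0.078), nor did Ccr7 without replicate 1 or 2 (0.275 and 0.198).

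Ligands and receptors differ in transcript length, and the IP ratio moved with length across all coding genes. The median main transcript was 1082 nt for ligands and 2632 nt for receptors, beside 2547 nt for coding genes. The rank correlation of transcript length with the IP against Input change was 0.25 in Ctrl (13042 coding genes) and 0.36 in IR (13804 genes), given as a description since the genes share the same libraries. Under 1000 nt the median coding gene stood at -1.12 in Ctrl and -1.24 in IR, beside -1.55 for 7 ligands and -1.83 for 8 ligands. From 1000 to 1500 nt it stood at -0.41 and -0.67, beside -1.51 and -1.54 for 5 ligands. From 2500 to 4000 nt the medians in Ctrl were -0.09 for coding genes, -0.67 for 3 ligands and 0.33 for 5 receptors. The ligand medians thus lay below those of coding genes of like length in each of these ranges. The ligands tested in Ctrl with a main transcript above 1500 nt were Ccl22, Cxcl16, Ccl9 and Cx3cl1. Their Ctrl changes were -0.80 (2216 nt), -0.67 (2699 nt), -2.26 (3006 nt) and -0.38 (3315 nt). The part of length in the difference between ligands and receptors was not tested.

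GGACT, a common form of the m6A consensus, was counted in the main transcripts. It occurred at a median of 0.9 per kb of main transcript in ligands and 1.06 in receptors, beside 1.02 in coding genes. It was absent from 11 of 33 ligands and 1 of 22 receptors, and the share of coding genes without it was not counted. A shorter transcript has fewer places for a match, and the median was 1082 nt for ligands and 2632 nt for receptors, so these absences do not show that ligands lack the motif. Ccl17 held 2 copies in 514 nt, while Cxcl2, Cxcl3, Ccl4 and Cxcr5 held 0. A match is a description of the sequence and does not show a methylated site.

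**Figure D4:**
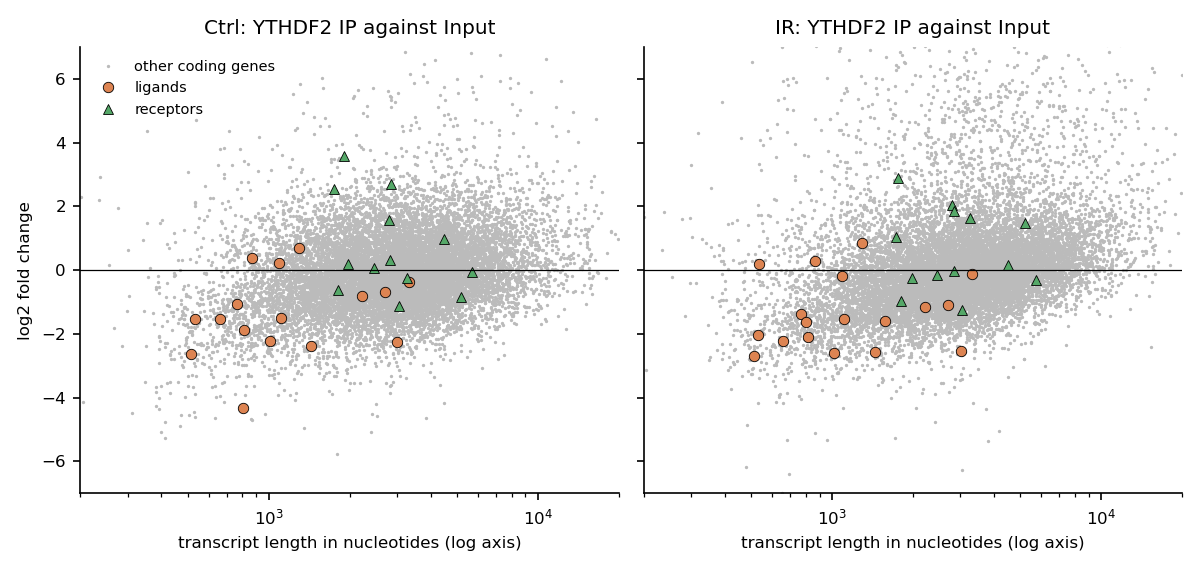
YTHDF2 IP against Input (log2 fold change) plotted against the length of the main transcript in nucleotides (log axis) in Ctrl (left) and IR (right). Grey points are the other coding genes, orange circles are ligands and green triangles are receptors, and 166 genes lie outside the axes. Most ligands lie at short lengths and below 0, receptors lie above 1500 nt on both sides of 0, and the grey cloud rises with length.

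The IP ratio of some members was called different between IR and Ctrl, tested directly as the interaction over the 12 libraries. None of these calls held under every alternative. Of 20 ligands, 5 had a lower IP ratio in IR than in Ctrl and 1 a higher one, and of 16 receptors 3 were lower and 1 higher, beside 13.9% of all genes called lower and 6.28% called higher. Ligands were thus at 25% lower and 5% higher and receptors at 18.8% and 6.25%, beside 17.9% and 7.23% of coding genes. The receptor shares lay near those of coding genes. The medians were -0.24 for ligands and -0.27 for receptors, and -0.10 for coding genes. With library size as the only scaling the median of all genes shifted by 0.31, and 0 ligands and 0 receptors were then lower and 3 ligands higher. The replicate block, which pairs IP and Input of the same lysate, left 0 ligands higher, since Ccl7 was lost (2.72, adjusted p = 0.0906).

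The receptors with a lower ratio in IR were Ccr1, Ccr7 and Cx3cr1. Ccr1 changed by -0.34 ± 0.074, Ccr7 by -0.40 ± 0.0895 and Cx3cr1 by -0.79 ± 0.269 (adjusted p = 0.00199, 0.00291 and 0.044), and with library size as the only scaling none of them passed (-0.032, -0.087 and -0.48). Ccr7 also failed without replicate 1 or 2 (adjusted p = 0.106 and 0.0748). Cx3cr1, whose IP pools went from 17.3, 11.1 and 12.2 CPM to 8.39, 8.63 and 7.75 CPM, failed with any replicate left out and under most other settings. Ccr9 had a higher ratio in IR (2.36 ± 0.707, adjusted p = 0.022), but its IR IP pools were at 5.86, 1.15 and 1.60 CPM, and without replicate 1, the highest pool, the value was 1.09 (adjusted p = 0.328). In IR alone its ratio of 1.49 ± 0.65 missed the threshold (adjusted p = 0.0673) and passed it under 5 alternatives, among them DESeq2 (1.54, adjusted p = 0.0341).

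For the 5 ligands with a lower IP ratio, the Input pools rose without overlap while the IP pools of Ctrl and IR overlapped. An Input rise with an unchanged IP level itself lowers the ratio, so picking genes by a lower ratio favours this pattern. Overlap is also more likely in the IP, where pools of one group differed more. The share of all genes with such pools was not counted. Ccl22 (-0.33 ± 0.0611), Ccl5 (-0.47 ± 0.0992) and Cxcl16 (-0.40 ± 0.0841) had adjusted p-values of 4.90e-04, 0.00162 and 0.00167 for the interaction. Ccl9 (-0.27 ± 0.0765, adjusted p = 0.0161, and 0.278 without replicate 3) and Ccl6 (-0.16 ± 0.0483, adjusted p = 0.0227, and 0.0508 with the replicate block) were lower as well. With library size as the only scaling, Ccl22, Ccl5 and Cxcl16 no longer passed (-0.021, -0.16 and -0.087), Ccl9 turned to 0.045 and Ccl6 turned to 0.15 (adjusted p = 0.047). Without replicate 2, Ccl5 and Cxcl16 also missed the threshold (adjusted p = 0.06 and 0.0879). Ccl4 (-0.68 ± 0.276), Ccl3 (-0.31 ± 0.183), Cxcr4 (-0.32 ± 0.176) and Cxcr5 (-0.82 ± 0.384) did not pass. The Input libraries enter both the Input comparison and the IP ratios, so these values are not independent of the Input rises.

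In the IP libraries alone, 1 of 16 ligands was higher in IR than in Ctrl and 0 were lower, and 0 of 15 receptors were higher and 1 lower, beside 6.12% of all genes called higher and 9.85% called lower. Ccl17 rose from 63.0, 68.4 and 64.2 CPM to 92.3, 94.98 and 83.1 CPM (0.48 ± 0.0874, adjusted p = 0.00123), about as much as in the Input. The receptor that fell was Cx3cr1 (-0.70 ± 0.214, adjusted p = 0.0352, and 0.131 with library size as the only scaling). Leaving out any replicate also ended the call of Cx3cr1 (adjusted p = 0.261, 0.064 and 0.126). IP pools of one group differed more than Input pools did, most of all in IR.

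The proteins that work behind the receptors were read from a list of 31 genes, all of which were tested. In the Input, 8 were higher and 9 lower in IR (median -0.01), beside 21% and 23.9% of all genes. Rgs1 (0.36 ± 0.0539) and Rgs2 (0.35 ± 0.042), which switch off G protein signals, and Gnai2 (0.25 ± 0.0235), the main inhibitory G protein subunit of leukocytes, were among the higher ones, and Grk6 (-0.46 ± 0.0403), a receptor kinase, Prex1 (-0.38 ± 0.0307) and Dock2 (-0.37 ± 0.0314), which activate Rac during migration, were among the lower ones. In the IP against Input in Ctrl, 11 were higher and 16 lower (median -0.17), beside 34.1% and 34.6% of all genes, with Gnai2 at 1.003 ± 0.0279 and Rac1 at -1.83 ± 0.0476. In IR, 6 were higher and 17 lower (median -0.28), beside 32.1% and 30.4%. For the interaction, 6 were higher and 12 lower (median -0.18), beside 6.28% and 13.9%, with Arrb2, a beta-arrestin that ends receptor signals, at -0.57 ± 0.0613 and Dock2 at 0.44 ± 0.0582. In the IP alone, 1 was higher and 7 lower in IR (median -0.10), beside 6.12% and 9.85%.

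Members with few counts complete the family. Cxcl10, the interferon-induced CXCR3 ligand, held 14 to 111 counts and Ccr4 25 to 212 across the libraries, and neither passed in the Input. Ccl24, Ccl12, Cxcl5, Cxcl12 and Cxcl14 among ligands and Xcr1, Ackr3, Cxcr3 and Ccr3 among receptors were tested in at least 1 comparison and called in none, with at most 94 counts in any library. Of the members not tested, the 13 ligands were Ccl1, Ccl8, Ccl11, Ccl19, Ccl20, Ccl26, Ccl28, Cxcl1, Cxcl9, Cxcl13, Cxcl15, Cxcl17 and Xcl1, and the 6 receptors were Ccr8, Ccr10, Cxcr1, Ackr1, Ackr2 and Ackr4. Their highest count in any library was 38, for Cxcl9. Ccl11, Cxcl15 and Cxcl17 had 0 counts in each of the 12 libraries, which allows a level of up to 0.108 CPM in the shallowest library. This limit covers counting error only. Ccl19, a ligand of CCR7, and Ccl20, the ligand of CCR6, were among the members below the count minimum.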

How the data were processed

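RIP-seq libraries of CD11b+ myeloid cells from MC38 tumors were grouped by their titles. Per the labels and the paper's methods, the authors used Trimmomatic 0.39 for trimming, HISAT for alignment to mm10 and GENCODE M19 as annotation, and they deposited raw HTSeq counts per gene. Normalization and tests were done here. The strand option of the counting is not given in the sources used here. Identifiers were matched to GENCODE M21 (99.9%). 1 gene that the naming rule matches is not reported here, and counts of members leave it out. The members and lists were chosen with earlier results of these data known. A gene entered a comparison if 3 or more of its libraries held 10 counts or more. Counts were scaled by TMM and tested with edgeR 4.0.16 (quasi-likelihood, R 4.3.3), with Benjamini-Hochberg adjustment over all genes tested and a threshold of 0.05. The SE was derived from the size of the log2 change and the F statistic (size over the root of F). Members with a mean of at least 100 counts are named with values, and others with their count range and with fold changes only where called. Lists comprised 31 signalling genes and 8 markers for each of 12 cell types. Alternatives were DESeq2 1.42.0, DESeq2 size factors, library size only, other filters, a fit of all 12 libraries, coding nuclear genes only, a 2-fold minimum, the replicate block and each replicate left out. The methods make Input a part of the lysate of the same-numbered IP, which pairs them. Deviations of paired libraries correlated at -0.0119 in Ctrl and -0.00667 in IR on average. The steps were tested on simulated counts, where the share of false calls exceeded the threshold for IR IP against Input and for the interaction, and not for the other comparisons. Labels name polyA RNA and an Abcam antibody, where the paper's methods name total RNA and another supplier.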

Additional observations from a re-analysis of the deposited data

Results flagged for a closer look

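The IP against Input ratio was called different between IR and Ctrl, by the interaction term of edgeR over 3 pools per group, for 10 chemokine genes. Over all genes tested, 13.9% were called lower and 6.28% higher. Lower in IR were the receptors Cx3cr1 (-0.79), Ccr7 (-0.40) and Ccr1 (-0.34) and the ligands Ccl5 (-0.47), Cxcl16 (-0.40), Ccl22 (-0.33), Ccl9 (-0.27) and Ccl6 (-0.16). Higher in IR were Ccl7 (2.70), with 1 to 2 counts in each Ctrl IP pool, and Ccr9 (2.36), where replicate 1 of IR IP stood at 5.86 CPM against 1.15 and 1.60 CPM in the others. All 10 lost their call under at least 1 alternative other than a 2-fold minimum. IR IP also had the highest share of reads on no gene (49.41% to 54.09%), and its part in these differences was not tested.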

How the results depend on the processing

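Counts of called genes depended most on the scaling, the minimum fold and single replicates. With a 2-fold minimum, the Input calls came to 0 ligands and 0 receptors higher, with 344 of all genes higher and 674 lower. At that minimum the Ctrl IP against Input gave 0 ligands and 4 receptors higher and 1 receptor lower (3625 and 3232 of all genes), and the IR IP against Input gave 1 receptor lower (3104 genes lower). It left 0 ligands and 0 receptors with a lower IP ratio in IR (589 genes higher, 270 lower), and 0 ligands higher and 0 receptors lower in the IP alone (571 and 135 genes). With library size as the only scaling, which moved the median of all genes by -0.18 in Ctrl IP against Input, 0.15 in IR IP against Input, 0.31 in the interaction and 0.21 in the IP alone, Ctrl IP against Input had 0 ligands higher, and IR IP against Input 1 ligand higher and 2 receptors lower. The interaction then had 3 ligands higher, 0 ligands lower and 0 receptors lower (2862 genes higher, 877 lower, so that 76.5% of calls were higher against 31.1%), and the IP alone 5 ligands and 2 receptors higher and 0 receptors lower (2665 and 828 genes, 76.3% higher against 38.3%). With the 12 libraries in one fit, the Input gave 3 receptors higher and 1500 genes lower (63.6% of calls higher against 46.8%), Ctrl IP against Input 0 ligands higher, and the IP alone 2 ligands higher, 1 ligand lower and 1 receptor higher (2125 and 2952 genes). Without a filter, Ctrl IP against Input had 0 ligands higher, IR IP against Input 5 receptors higher and the interaction 0 ligands higher. With 10 counts in every library, IR IP against Input had 1 ligand higher, the interaction 0 ligands higher and 3 lower, and the IP alone 1 receptor higher. With coding nuclear genes only, IR IP against Input had 1 ligand higher and 2 receptors lower, the interaction 3 ligands lower and the IP alone 1 receptor higher. DESeq2 size factors gave 3 ligands lower in the interaction, and DESeq2 gave 2 ligands and 1 receptor higher in the IP alone.

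With each replicate left out in turn, the Input gave 0 to 1 ligands lower and 4 to 5 receptors higher, Ctrl IP against Input 0 to 1 ligands and 4 to 6 receptors higher, and IR IP against Input 3979 to 4153 genes higher. The interaction gave 0 ligands higher each time, 1 to 4 ligands lower, 0 to 1 receptors higher and 1 to 2 lower, with 838 to 1012 genes higher and 1786 to 2046 lower. The IP alone gave 0 receptors lower each time, with 564 to 748 genes higher and 1097 to 1348 lower.

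The replicate block pairs IP and Input of one lysate in the IP against Input and interaction fits. In the Input and IP-alone fits it joins Ctrl and IR libraries of the same number instead. With the block, 0 ligands were higher in the interaction, and no other count of members changed by over 1.5 times. Between Ctrl and IR a shared number marks no shared source, and deviations of same-numbered Input libraries correlated at 0.0197 on average.

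Some values changed sign. In the Input, Ccl2 ranged from -0.024 without replicate 1 to 0.18 without replicate 3. In IR IP against Input, Cx3cl1 stood at 0.028 with library size only, 0.009 with coding nuclear genes only, and from -0.19 without replicate 1 to 0.032 without replicate 3. In the interaction, library size only gave Ccl3 at 0.007, Ccl6 at 0.15 and Ccl9 at 0.045, and Cxcr4 ranged from -0.53 without replicate 3 to 0.003 without replicate 1. The ratio of Ccl17 to Ccl6 in Ctrl Input was 1.14 per kilobase of exons and 0.327 without division by length. Of the other values of single genes, 832 kept their direction and their side of the threshold, 121 no longer passed and 9 passed newly. The causes were not tested. Depth limited members with under 10 counts in most libraries, which were not tested.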

Other observations

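Pf4 and Ppbp, platelet chemokines that the naming rule leaves out, were also present in these cells. Pf4 stood at 21.3, 24.9 and 23.2 CPM in Ctrl Input and 29.9, 31.7 and 32.9 CPM in IR Input, a rise of 0.37 ± 0.0705 (adjusted p = 1.05e-04, edgeR), higher in 3 of 3 IR pools than in any Ctrl pool. Its IP levels were 3.99 ± 0.814 CPM in Ctrl and 5.11 ± 0.936 CPM in IR (SD, n = 3). Ppbp stood at 4.82 ± 0.460 CPM in Ctrl Input and 4.32 ± 0.661 CPM in IR Input, did not pass (-0.24 ± 0.159, adjusted p = 0.243), and was at 0.299 ± 0.0753 CPM in Ctrl IP. Both thus had lower levels in the IP than in the Input, the direction seen for most ligands, though their IP ratios were not among the fits reported.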
